A study of Mus musculus with 8 samples.

Results

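The genes considered are those that lie beside *Mfsd2a* on mouse chromosome 4. They were chosen by position alone, as every gene of the deposited table that reaches into the 5 Mb on either side of *Mfsd2a*, without *Mfsd2a* itself and without symbols that begin with Col, Cdc, Psm or Nduf. The rule left 98 of 16650 genes, 41 at lower and 57 at higher coordinates than *Mfsd2a*, and dropped 5 (*Cdc20*, *Cdca8*, *Col8a2*, *Ndufs5* and *Psmb2*). No measured value entered this rule, but it was set with earlier results of these data known. How the deposited table was filtered is not given in the sources used here.

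Liver RNA was sequenced from 8 mice, 1 library each, 4 of genotype 2afl/fl and 4 of genotype L2aKO, all aged 10 weeks and all on a NASH diet, a diet rich in fat, with fructose in the drinking water, which the study began at 8 weeks of age and gave for 2 weeks. Both genotypes carry floxed alleles of *Mfsd2a*, in which loxP sites flank a part of the gene, and L2aKO mice carry in addition a Cre recombinase under the albumin promoter, which acts in hepatocytes. Kupffer, endothelial and stellate cells, which do not make albumin, keep their alleles, and recombination in other cells was not analysed here. The study used male mice unless it said otherwise and took livers at zeitgeber time 4, that is, in the early light phase. Values are the authors' DESeq2 normalized values, reads of a gene divided by a size factor of its library, and they are not per length. The step between small values placed the depth at 27.5 to 37.2 M reads per liver, and members of mean value at least 10 varied by a median of 9.13% (coefficient of variation within genotypes). Hepatocyte markers were high in every liver (*Alb*, which encodes albumin, between 1011000 and 1436000). The summed markers of endothelium ran from 6427 to 7785 in 2afl/fl and from 7929 to 8539 in livers labelled L2aKO without overlap. Most of the sum came from *Stab2* (means 3853 and 4300, in the same order) and *Kdr* (2712 and 2923). *Pecam1* had means of 684 and 716, and *Lyve1* went the other way, at 176 and 172. The summed markers of neutrophils ran from 493 to 554 and from 474 to 567, nearly all of it from *Cxcr2*, a chemokine receptor, which alone stood between 459 and 556.

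Genes on one stretch of chromosome are inherited together, and a mouse that carries an engineered allele also carries the DNA around it from the strain in which the allele was made. In a conditional knockout such as this one both genotypes hold the floxed allele, while the recombination itself occurs in the liver cell and removes only the DNA between the loxP sites. Neighboring genes can share enhancers, can start from one promoter on opposite strands, or can overlap, so that RNA from one can be read as the other where the strand is not recorded. The genes beside *Mfsd2a* are mostly general cell genes: they process RNA, shape chromatin, sort membranes and build the cytoskeleton, with a few that belong to endothelium or blood cells.

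*Mfsd2a*, which encodes the transporter that carries lysophosphatidylcholine into cells, occupies chr4:122946851-122961188 of mm10 on the minus strand, with 14 exons in its main GENCODE M21 transcript. Its normalized values were 467, 1569, 299.6 and 513 in 2afl/fl replicates 1 to 4 and 915, 721, 1422 and 1974 in L2aKO replicates 1 to 4. The genotypes overlapped, and the level was not lower in the mice labelled L2aKO. The log2 fold change, L2aKO over 2afl/fl, was 1.01 (SE 0.59, 95% interval -0.43 to 2.44; exact two-sided permutation p = 0.171 over 70 assignments, of which 0.0286 is the smallest possible). Without 2afl/fl replicate 2 it was 1.49 and passed the criterion given below. The table does not say which exons the value counts, and RNA from a recombined allele can still be read where other exons are counted. The transcript is therefore no check of the deletion, and protein was not analysed here. Because the deletion was not checked here, the second group is called livers labelled L2aKO from here on.

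The 300 bases around the annotated start of *Mfsd2a* and of 4 members are printed because they hold the starts from which the transcripts discussed below are read: *Mfsd2a* (chr4:122961139-122961438, minus strand), *Gm12915* (chr4:124751305-124751604, minus strand), *Yrdc* (chr4:124850509-124850808, plus strand), *Oscp1* (chr4:126058315-126058614, plus strand) and *Zmym6* (chr4:127077133-127077432, plus strand), all from RefSeq on GRCm38.p6, the assembly of mm10, and 250 bases before to 50 after the start. Capitals mark 3 short motifs on either strand, the CCAAT box, the GC box and the E-box, which are spelled out after the sequences.
Mfsd2a: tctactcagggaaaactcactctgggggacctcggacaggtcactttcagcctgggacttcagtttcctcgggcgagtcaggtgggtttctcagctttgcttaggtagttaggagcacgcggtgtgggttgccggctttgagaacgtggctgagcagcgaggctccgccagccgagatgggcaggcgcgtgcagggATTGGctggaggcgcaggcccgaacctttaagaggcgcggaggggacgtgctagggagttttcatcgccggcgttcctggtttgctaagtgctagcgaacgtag
Gm12915: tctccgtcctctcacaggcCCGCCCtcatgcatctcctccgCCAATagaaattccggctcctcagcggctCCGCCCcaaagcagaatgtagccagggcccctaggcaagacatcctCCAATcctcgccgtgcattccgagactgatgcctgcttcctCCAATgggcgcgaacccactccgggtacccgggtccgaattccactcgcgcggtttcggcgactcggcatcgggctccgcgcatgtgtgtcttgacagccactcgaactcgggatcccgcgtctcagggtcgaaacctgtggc
Yrdc: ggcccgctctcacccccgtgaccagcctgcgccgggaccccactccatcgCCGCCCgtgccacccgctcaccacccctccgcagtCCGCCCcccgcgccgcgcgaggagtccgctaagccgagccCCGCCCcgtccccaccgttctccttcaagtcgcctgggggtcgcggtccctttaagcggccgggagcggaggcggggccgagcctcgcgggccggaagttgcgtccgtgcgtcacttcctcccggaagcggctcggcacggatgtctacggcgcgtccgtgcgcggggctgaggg
Oscp1: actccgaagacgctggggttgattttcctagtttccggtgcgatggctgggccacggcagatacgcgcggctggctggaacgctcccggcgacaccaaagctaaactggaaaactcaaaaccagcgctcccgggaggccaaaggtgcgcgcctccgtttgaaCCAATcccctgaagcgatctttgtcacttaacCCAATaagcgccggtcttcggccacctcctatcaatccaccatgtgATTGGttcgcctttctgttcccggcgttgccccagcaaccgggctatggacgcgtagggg
Zmym6: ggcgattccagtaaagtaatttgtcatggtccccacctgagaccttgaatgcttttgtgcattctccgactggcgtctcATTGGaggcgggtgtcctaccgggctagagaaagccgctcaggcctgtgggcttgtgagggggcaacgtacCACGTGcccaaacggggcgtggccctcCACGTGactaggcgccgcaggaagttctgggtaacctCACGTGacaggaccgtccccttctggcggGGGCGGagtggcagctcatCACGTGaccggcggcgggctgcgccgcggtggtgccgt

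The CCAAT box was found 3 times each in the windows of *Gm12915* and *Oscp1* and once each in those of *Mfsd2a* and *Zmym6*, and it is held by 37.4% of all 32851 RefSeq start windows of this length. *Zmym6* held 4 copies of CACGTG, the E-box that reads the same on both strands, which 7.15% of all windows hold at least once. This motif was added after the sequences had been seen. GGGCGG, the GC box, stood 3 times in the *Yrdc* window, 2 times in that of *Gm12915* and once in that of *Zmym6*, and is held by 35.7% of all windows. Start windows were found for 83 of the 98 members, 103 windows in all, of which 42.7% held the CCAAT box, 65.0% the GC box and 5.83% the E-box. The half-site of the glucocorticoid receptor, TGTTCT on either strand, stood in none of the 5 windows printed, in 7.77% of members' windows and in 19.0% of all. The paper places the site through which this receptor acts on *Mfsd2a* in an intron, which the start window does not cover. Members' windows and all windows were not matched for base composition. These matches describe letters and not binding. In the 5 windows no 2 matches overlapped.

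Few genes around *Mfsd2a* differed between the genotypes beyond the spread of 4 livers each, and none did after adjustment over all genes. The study took an unadjusted p under 0.05 together with a fold limit as its cutoff. The same 2 thresholds were applied here to limma on log2 of the value plus 1, fitted over all genes, and the fold limit equals a log2 fold change of 0.32 either way. Members past both, the criterion in what follows, are called higher or lower. Beside named members stands the exact two-sided permutation p of the difference in mean log2 value, which cannot go below 0.0286 with 4 livers a genotype and is unadjusted. Of the 98 members 5 were called (5.1%), where 2.10% of all 16650 genes were. Called higher in the livers labelled L2aKO were *Rims3*, *Maneal* and *Oscp1* (3 of 98, against 1.32% of all genes), and called lower were *Gm12915* and *Zmym6* (2 of 98, against 0.781%). At an unadjusted p under 0.05 without the fold limit stood 7 members (7.14%, against 3.49%). After Benjamini-Hochberg adjustment over all genes with limma, no member had a p under 0.05, and 0.00% of all genes did. Of the 951 genes on the rest of chromosome 4, 13 were called. These shares carry no test.

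For 45 members (45.9%) the 95% interval of the log2 fold change lay wholly inside the fold limit either way, against 43.1% of all genes. For the other members the depth and the spread leave a difference of that size possible. The median log2 fold change of the members was -0.02 and that of all genes 0.00, and 42 members had a positive and 56 a negative value.

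**Figure D1:**
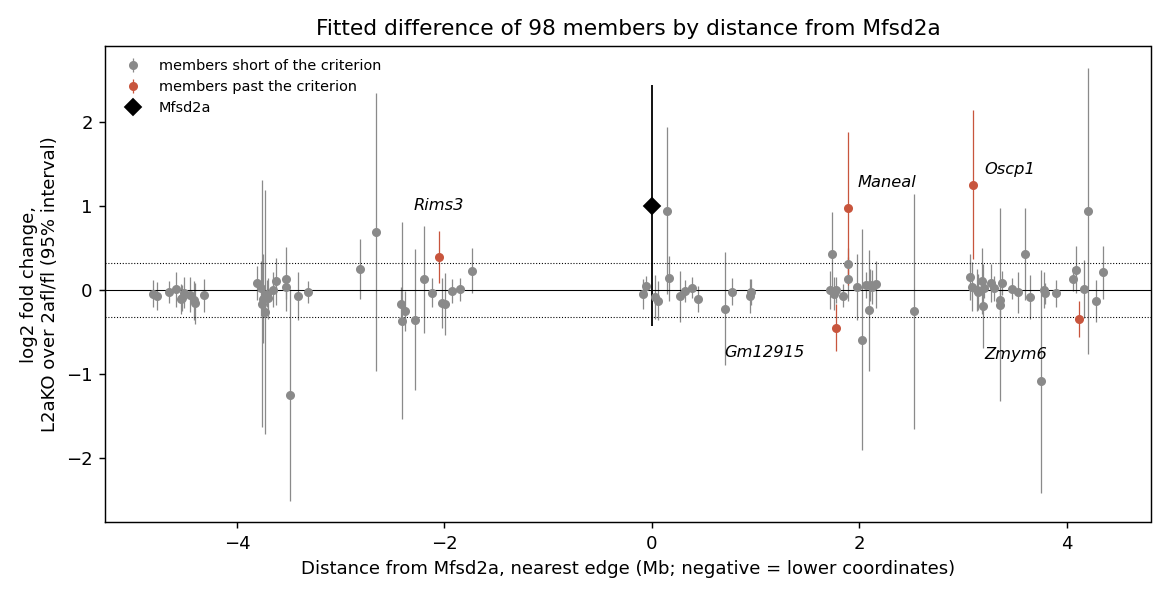
Fitted log2 fold change, livers labelled L2aKO over 2afl/fl, of each of the 98 members (vertical axis, with its 95% interval) against the distance of its nearest edge from *Mfsd2a* in Mb (horizontal axis, negative at lower coordinates). Red points are the 5 called members, the black diamond is *Mfsd2a*, and dotted lines mark the fold limit (0.32); no member within 1 Mb of *Mfsd2a* was called, and the called members lie between 1.77 and 4.12 Mb away.

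No order of the differences by distance from *Mfsd2a* was seen. Within 1 Mb lay 14 members, none of them called and none with an unadjusted p under 0.05. At the 2.10% of all genes called, fewer than 1 call would fall among 14 members, so that this count is no result about distance. Between 1 and 2.5 Mb 3 of 28 were called, and between 2.5 and 5 Mb 2 of 56. The median size of the log2 fold change, without its sign, was 0.07 within 1 Mb, 0.14 at 1 to 2.5 Mb and 0.09 beyond, against 0.09 for all genes. Sizes depend on the level of a gene, since low values vary more. Among members of mean value at least 10 the medians were 0.07, 0.10 and 0.07 in the same order, and 0.07 among all genes so filtered. Across the 98 members Spearman's rho between distance and size was -0.05, a description over genes that are not independent replicates. On the side of lower coordinates 1 of 41 members was called, and on the other 4 of 57. The outermost members were *St3gal3* at 4.81 Mb (-0.04, SE 0.08) and *Gja4* at 4.35 Mb (0.21, SE 0.15). Just outside the window lay *Artn* at 5.02 Mb (0.11, SE 0.68) and *Csmd2* at 5.03 Mb (-0.05, SE 0.65).

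*Cap1* and *Ppt1* are the nearest genes on the side toward which *Mfsd2a* is transcribed, and *Mycl* and *Trit1* the nearest beyond its start. *Cap1*, which encodes a protein that recycles actin, lies 60.8 kb away and is read from the same strand. Its values were 2237, 2055, 2066 and 2091 in 2afl/fl and 2167, 2148, 2224 and 2196 in the livers labelled L2aKO. The 8 livers thus lay within a narrow band, with a log2 fold change of 0.05 (SE 0.05, 95% interval -0.07 to 0.16), inside the fold limit on both sides.

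*Ppt1* encodes the lysosomal enzyme that strips palmitate from proteins, and its end overlaps that of *Cap1* by 128 bases on the opposite strand. It stood at 851, 742, 773 and 668 against 789, 697, 683 and 766, a log2 fold change of -0.05 (SE 0.08, 95% interval -0.22 to 0.13). The genotypes overlapped, and the interval again lay inside the fold limit. Beyond *Ppt1* the table lists no gene for 1621 kb, up to *Rlf*, a zinc finger gene 1.73 Mb from *Mfsd2a* (0.23, SE 0.12, exact permutation p = 0.2).

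*Mycl*, a member of the MYC family of transcription factors, starts 34.7 kb from the start of *Mfsd2a* on the opposite strand. Its values were 303, 385, 276 and 258 in 2afl/fl and 306, 255, 288 and 295 in the livers labelled L2aKO. The highest of the 8 belongs to 2afl/fl replicate 2, the control with the highest *Mfsd2a*, and the log2 fold change was -0.08 (SE 0.12, 95% interval -0.35 to 0.18). *Trit1*, which encodes an enzyme that modifies transfer RNA, stood at 283, 338, 400.7 and 346 in 2afl/fl and 344, 303, 299 and 297 in the livers labelled L2aKO, with overlapping genotypes (-0.13, SE 0.11).

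*Bmp8b* encodes a secreted ligand of the bone morphogenetic protein family and was scarce, at 5.32, 2.13, 9.08 and 10.5 in 2afl/fl and 11.99, 12.3, 20.9 and 7.43 in the livers labelled L2aKO. The upper 3 of the 8 values belong to livers labelled L2aKO, but the lowest of that group lies below 2 of the controls. Its log2 fold change of 0.95 (SE 0.46, exact permutation p = 0.143) is the largest within 1 Mb and fell short of the criterion. It passed without 2afl/fl replicate 3 (1.13), without 2afl/fl replicate 4 (1.19) and without L2aKO replicate 4 (1.17). It fell to 0.57 without 2afl/fl replicate 2 and to 0.71 without L2aKO replicate 3. *Ppie*, a cyclophilin of the spliceosome 166 kb away, was at 0.14 (SE 0.12). *Macf1*, which links microtubules to actin and spans much of the stretch behind it, was at 0.03 (SE 0.06, 95% interval -0.10 to 0.15), with values between 10549 and 11497 in all livers.

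**Figure D2:**
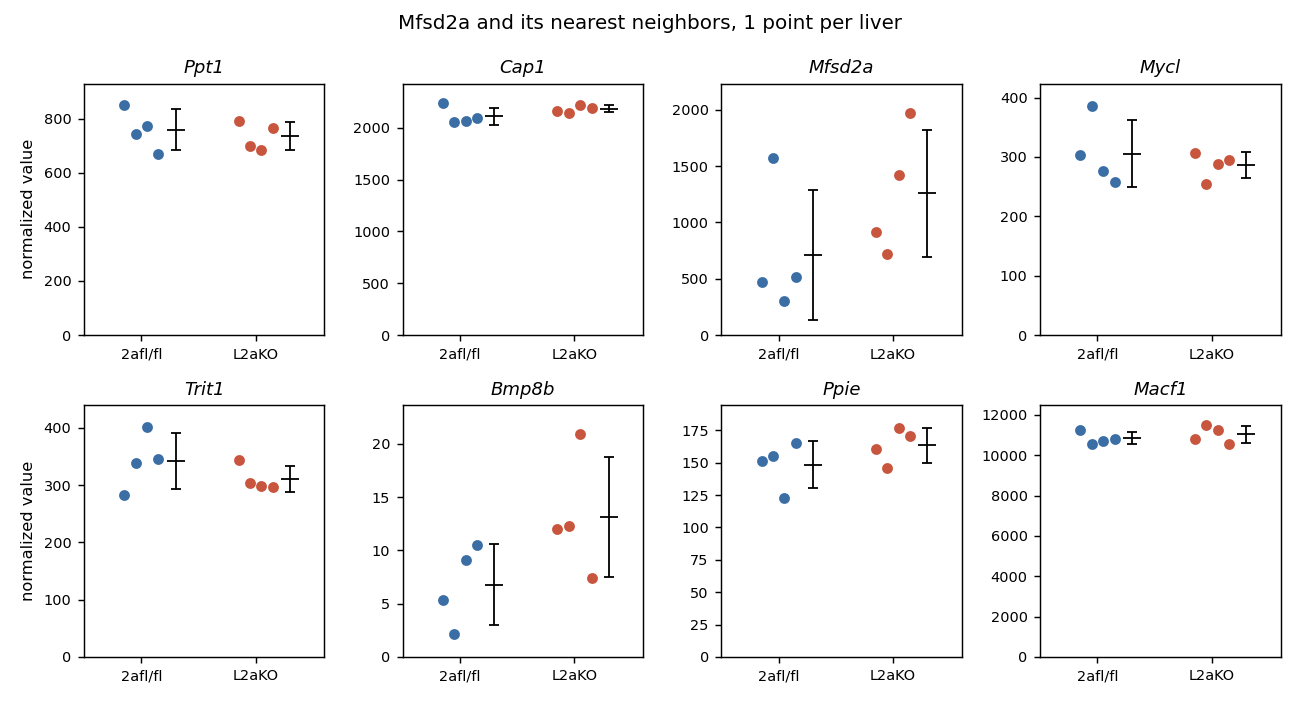
Normalized value per liver (vertical axes, from 0) of *Mfsd2a*, the 6 members within 250 kb of it and *Macf1*, with 2afl/fl in blue and the livers labelled L2aKO in red; bars are mean and SD, n = 4 each. *Mfsd2a* runs from 299.6 to 1974, whereas *Cap1* stays between 2055 and 2237.

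Of the 7 members with an unadjusted limma p under 0.05, 3 lay in a run of 6 genes, picked out after their values had been seen, that overlap or nearly touch 1.77 to 1.89 Mb from *Mfsd2a*: *Gm12915*, *Inpp5b*, *Mtf1*, *1110065P20Rik*, *Yrdc* and *Maneal*. *Gm12915* (chr4:124735731-124751354, minus strand) is a long noncoding RNA gene that overlaps the start of *Inpp5b* by 9505 bases, 110 of them exonic in both. Its values were 327, 324, 348 and 321 in 2afl/fl and 309.6, 232, 251 and 189 in the livers labelled L2aKO. All 4 livers labelled L2aKO lay below all 4 controls, though L2aKO replicate 1 lay close under them. *Gm12915* was called lower at a log2 fold change of -0.45 (SE 0.13, exact permutation p = 0.0286, adjusted limma p = 0.9997). *Inpp5b*, which encodes a phosphatase of inositol lipids on the other strand, stood at 1261 ± 133 and 1256 ± 37.8 (SD, n = 4 each; 0.00, SE 0.07). Whether the counting used strand is not given in the sources used here, so the 2 values may share reads.

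*Yrdc* (chr4:124850759-124855242, plus strand) makes the threonylcarbamoyl group that is placed on transfer RNA, and its start lies 28 bases from that of *1110065P20Rik* on the other strand, so that the window printed above holds both starts. Its values were 284, 278, 270.1 and 323 in 2afl/fl and 314, 372, 376 and 367 in the livers labelled L2aKO. L2aKO replicates 2 to 4 lay above every control, and L2aKO replicate 1 below 2afl/fl replicate 4. The log2 fold change of 0.31 (SE 0.09, exact permutation p = 0.0571) fell just under the fold limit, whose log2 is 0.32. *Yrdc* passed the criterion without 2afl/fl replicate 4 (0.36) and without L2aKO replicate 1 (0.37), and fell to 0.27 without 2afl/fl replicate 3. *1110065P20Rik* was at 0.13 (SE 0.12) and *Mtf1*, the zinc-sensing transcription factor that drives metallothionein genes, at -0.07 (SE 0.06).

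*Maneal*, an endomannosidase-like gene that meets the end of *Yrdc* with an overlap of 4 bases, was scarce. It stood at 7.45, 4.26, 7.95 and 1.92 in 2afl/fl and 7.63, 14.7, 9.51 and 11.1 in the livers labelled L2aKO, so that 3 livers labelled L2aKO lay above every control and 1 among them. It was called higher at 0.98 (SE 0.42, exact permutation p = 0.0571). The call did not hold without 2afl/fl replicate 2 (0.93), 2afl/fl replicate 4 (0.64), L2aKO replicate 2 (0.82), L2aKO replicate 3 (1.02) or L2aKO replicate 4 (0.95), nor with quantile normalization (0.89).

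**Figure D3:**
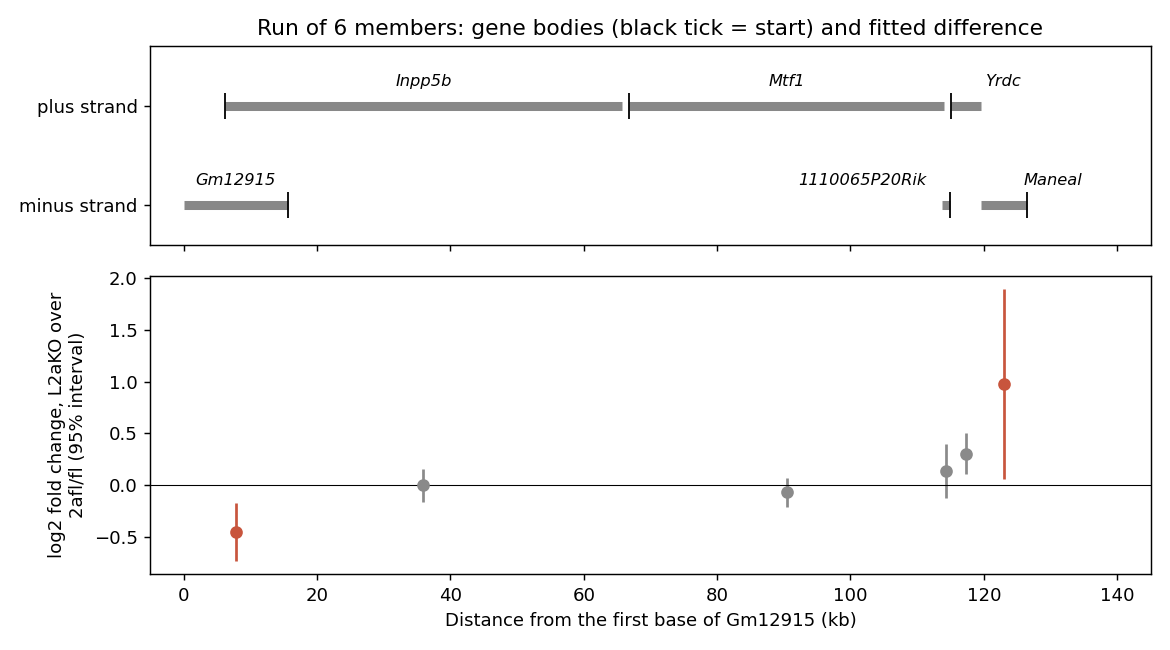
Upper panel: the 6 genes of the run on their strands against the distance from the first base of *Gm12915* in kb, with a black tick at each start. Lower panel: the fitted log2 fold change of each, livers labelled L2aKO over 2afl/fl, with its 95% interval at the middle of the gene; *Gm12915* (-0.45) and *Maneal* (0.98), in red, were called, and *Inpp5b* (0.00) and *Mtf1* (-0.07) between them stood near 0.

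*Oscp1* (chr4:126058565-126092195, plus strand, 3.10 Mb away), named for its part in organic solute transport, had the largest fold change of the called members and the lowest values. They were 3.19, 2.13, 3.41 and 1.92 in 2afl/fl and 7.63, 4.91, 13.3 and 6.50 in the livers labelled L2aKO. The genotypes did not overlap, at a log2 fold change of 1.26 (SE 0.41, exact permutation p = 0.0286), which rests on normalized values between 1.92 and 13.3. *Zmym6* (chr4:127077383-127124374, plus strand, 4.12 Mb away), a zinc finger gene of the MYM type, stood at 349, 368, 439 and 399 against 301, 273, 302 and 349. The highest liver labelled L2aKO, replicate 4, lay level with the lowest control. *Zmym6* was called lower at -0.34 (SE 0.10, exact permutation p = 0.0571), but not without 2afl/fl replicate 3 (-0.28) or L2aKO replicate 2 (-0.29), where the fold change fell under the limit. Its neighbor and relative *Zmym1* had the other sign (0.24, SE 0.13, exact permutation p = 0.114), and *Zmym4* was at -0.04 (SE 0.08).

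*Rims3* (chr4:120854799-120896575, plus strand, 2.05 Mb away on the other side), which encodes a protein of the active zone of synapses, stood at 107, 82.0, 82.9 and 77.7 in 2afl/fl and 110.1, 120.4, 127 and 102 in the livers labelled L2aKO. Only the highest control, replicate 1, reached into the range of the other genotype. *Rims3* was called higher at 0.40 (SE 0.14, exact permutation p = 0.0571). The calls of *Rims3*, *Gm12915* and *Oscp1* held without each library in turn. By the exact permutation test *Gm12915* and *Oscp1* were at the smallest p possible, and *Rims3*, *Zmym6* and *Maneal* at 0.0571.

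**Figure D4:**
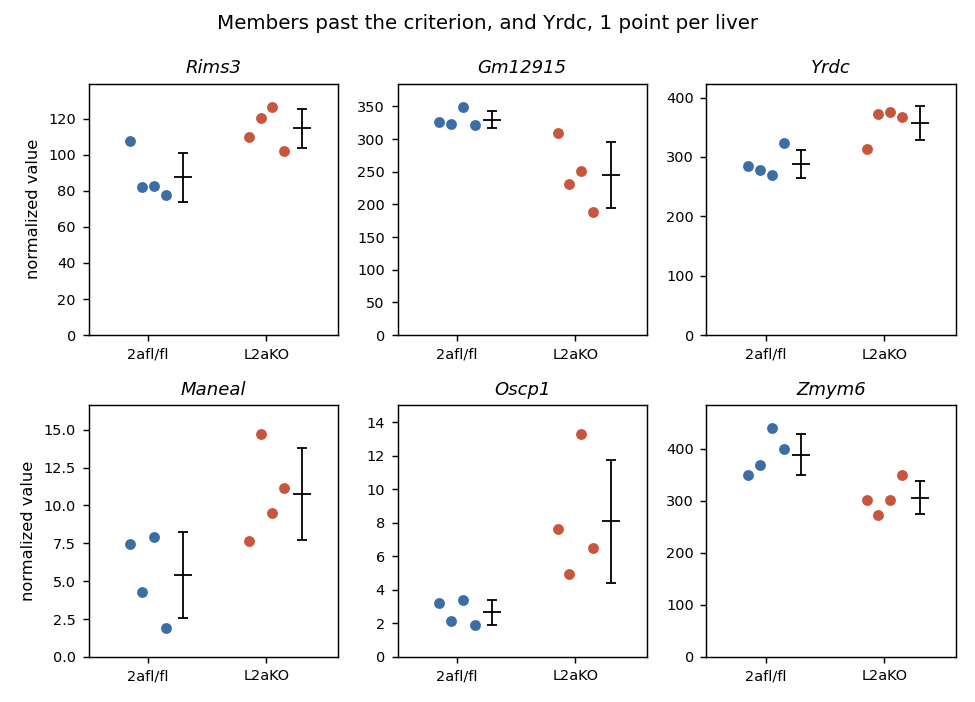
Normalized value per liver (vertical axes, from 0) of the 5 called members and *Yrdc*, with 2afl/fl in blue and the livers labelled L2aKO in red; bars are mean and SD, n = 4 each. *Gm12915* and *Oscp1* show no overlap between genotypes, and *Oscp1* and *Maneal* stay under 15 in every liver.

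Altogether 4 members (4.08%) showed no overlap between genotypes, against 2.25% of all genes: *Gm12915*, *Oscp1*, *Hivep3* and *Csf3r*. *Csf3r*, the receptor for granulocyte colony-stimulating factor on neutrophils, stood at 83.5, 80.8, 77.5 and 73.2 in 2afl/fl and 86.8, 88.1, 88.2 and 87.4 in the livers labelled L2aKO. All 4 lay above the controls by a small margin (0.15, SE 0.13, exact permutation p = 0.0286), which did not pass. Of the neutrophil markers 0 of 4 measured were called. *Cxcr2* had a log2 fold change of -0.01, and *S100a8*, *S100a9* and *Retnlg*, at most 16.3 in any liver, had 0.35, 0.70 and 0.67. The part of neutrophil number in *Csf3r* was not tested. In whole liver, a change in the number of cells of a type and a change in RNA per cell cannot be told apart. *Hivep3*, a zinc finger gene, was at 0.25 (SE 0.16), and *Zc3h12a*, whose product degrades cytokine transcripts, at 0.07 (SE 0.13). *Ermap*, an erythroid membrane gene, was listed at or under 4.54 in every liver. Of the 3 erythroid markers *Hbb-bs* was called higher (means 234 and 346, log2 fold change 0.53), *Hbb-bt* was at 0.63 and *Alas2* at -0.10. Of the 2 B cell markers *Ms4a1* was called higher (means 11.6 and 19.8, log2 fold change 0.88), and *Cd79a* was at 0.42. No marker of the other cell types looked at was called. The part of these cells in the members was not tested.

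Over all genes 2.10% were called and 43.1% had an interval inside the fold limit. At the share called, the role lists here and below are too short for their counts of calls to be a result about a role. By role, none of the 18 RNA and translation genes measured was called, 12 were positive and 6 negative, and 13 had an interval inside the fold limit. *Ybx1*, a Y-box protein that packages messenger RNA, was at 0.01 (SE 0.10), and the splicing factors *Thrap3* and *Sfpq* at 0.02 (SE 0.05) and 0.13 (SE 0.07). *Ago1*, *Ago3* and *Ago4*, which stand side by side and encode Argonaute proteins that hold microRNAs, were at 0.02 (SE 0.06), 0.08 (SE 0.07) and -0.02 (SE 0.11).

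Transcription and chromatin genes numbered 21, with *Zmym6* as the only call, 6 positive and 15 negative. The forkhead factor *Foxj3* was at -0.02 (SE 0.06), the histone demethylase *Kdm4a* at -0.07 (SE 0.08), *Akirin1* at -0.02 (SE 0.07) and the Polycomb gene *Scmh1* at -0.17 (SE 0.10, exact permutation p = 0.114).

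Of 7 genes of lipids, lysosomes and membrane traffic none was called, and 6 had an interval inside the fold limit, against 2.10% and 43.1% of all genes. Besides *Ppt1* and *Inpp5b* these include *Rragc*, a GTPase that reports amino acids to mTORC1 on the lysosome (-0.02, SE 0.07), *Smap2*, which acts in vesicle budding (-0.01, SE 0.06), and *Elovl1*, the elongase of very long fatty acids (-0.03, SE 0.09). None of 8 metabolic genes was called. *Ctps*, which makes the CTP that the CDP-choline route to phosphatidylcholine uses, stood at 164, 170.3, 174 and 140.0 in 2afl/fl and 134, 142, 134 and 132 in the livers labelled L2aKO. All but 1 control exceeded every liver labelled L2aKO, but the difference of -0.25 (SE 0.11, exact permutation p = 0.0571) lay under the fold limit. *Slc2a1*, the glucose transporter GLUT1, was at 0.08 (SE 0.09), *Ppcs* of coenzyme A synthesis at 0.03 (SE 0.07), *Hyi* at 0.01 (SE 0.10) and the sialyltransferase *St3gal3* as given above.

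Among 9 cytoskeleton and cilium genes *Oscp1* was the only call. *Map7d1*, which binds microtubules, was at 0.08 (SE 0.10), and *Fhl3*, a LIM protein of actin filaments, at 0.43 (SE 0.23). *Fhl3* passed without 2afl/fl replicate 3 (0.58) and without L2aKO replicate 1 (0.54), and fell to 0.34 without L2aKO replicate 4. Of 5 genes measured on the list for endothelium, vessel and secreted signals none was called. The endothelial receptor *Tie1* was at -0.05 (SE 0.09) and the vessel connexin *Gja4* at 0.21, beside endothelial markers whose sums did not overlap as given above and of which 0 of 4 were called; their part in these values was not tested. *Ptprf*, a receptor phosphatase counted on the same list, had the highest value per kb of exon of all matched members (1474) and was at -0.03 (SE 0.06). Of 28 members on no role list 3 were called, *Gm12915*, *Maneal* and *Rims3*. *Zmpste24*, which processes prelamin A, was at 0.01 (SE 0.06) and *D830031N03Rik*, inside *Macf1* on the same strand, at -0.11 (SE 0.07).

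*Mfsd2a* itself ran from 299.6 to 1974 among the 8 livers, which allowed its neighbors to be set against it liver by liver. With 98 correlations over 8 livers, none had an adjusted p under 0.05 by Pearson or by Spearman. Before adjustment 9 had a Pearson p under 0.05 (4 positive, 5 negative) and 10 a Spearman p under 0.05. These p come from exact two-sided permutation tests over all pairings of the 8 livers, and adjustment was over the members. The share of all genes at such p is not given here, so these counts are no result about the neighbors of *Mfsd2a*. For the genes nearest to *Mfsd2a*, Pearson's r was 0.26 for *Cap1*, -0.19 for *Ppt1*, 0.49 for *Mycl* and -0.46 for *Trit1*, with Spearman's rho of 0.07, -0.24, 0.43 and -0.38, and exact permutation p of 0.516, 0.649, 0.216 and 0.251 for r and 0.882, 0.582, 0.299 and 0.36 for rho. Without 2afl/fl replicate 3 and L2aKO replicate 4, the livers farthest from the median of *Mfsd2a*, r was -0.23, -0.24, 0.60 and 0.21.

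The lowest r belonged to *Ptprf*, at -0.89 (rho -0.86, exact permutation p = 0.00243 for r and 0.0107 for rho, adjusted p = 0.16 and 0.263, r = -0.77 without the 2 livers), followed by *P3h1* of collagen hydroxylation (-0.84) and *Tmem125* (-0.83). The highest were *Hivep3* (0.78), *Lsm10* of the U7 small nuclear ribonucleoprotein (0.77), *Ppie* (0.74), *Inpp5b* (0.69) and *Meaf6* of a histone acetyltransferase complex (0.67), of which *Ppie* fell to 0.39 without the 2 livers. Each genotype holds 4 livers, too few for a correlation within it. The correlations therefore pool both genotypes, and any difference between the genotypes enters r.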

How the data were processed

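Liver RNA of 8 mice was sequenced by a service laboratory. Per the paper's methods and the submitters' processing notes, the authors used Partek Flow 10, STAR 2.7.8a on mm10 and DESeq2. The values the authors deposited are a normalized signal, reads per gene over a size factor for each library. The annotation, strand setting and filter are not given in the sources used here. Low values were whole multiples of the value of 1 read, within 0.02, in 88.7 to 89.5% of cases, so whole reads were not recovered and no count model was used. Depth followed from that step. The deposited stop was taken as 1 past the last base.

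All 16650 genes were fitted with limma 3.58.1 in R 4.3.3 (lmFit, eBayes with trend and robust, log2 of value plus 1, two-sided, no covariates), and p values were adjusted by Benjamini-Hochberg over them. A fold change on this scale understates that of low genes. Distance is between nearest edges. Exonic lengths and gene types came from GENCODE M21, in which 97 of 98 members were matched. The limma and correlation steps were tested on simulated data. An exact permutation p for single members was a later addition, made with the values known. Each mouse is 1 library, so p values for a genotype difference set it against the spread between libraries. That spread holds mouse and preparation together.

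The members, role lists and tests were chosen with earlier results of these data known. Named were members within 250 kb, all called members, the 5 higher and 5 lower of smallest p with a mean of at least 10, the 5 of highest mean, up to 3 per role list by mean, and the 5 highest and 3 lowest correlations with *Mfsd2a*. Others were named as neighbors of these, or after their values were seen (*Csmd2*, *Artn*, *Rlf*, *Zmym4*, *Mtf1*, *1110065P20Rik*, *Ago1*, *Ago3*, *Ago4*, *Elovl1*, *Slc2a1*). Alternatives changed the pseudocount, filter, scaling, eBayes settings, library weights, replicate block, fold limit and distance, and left out each library.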

Additional observations from a re-analysis of the deposited data

Results flagged for a closer look

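In groups of 4 livers, 1 value stood apart from the other 3 by more than 0.83 of the range in 9 of the 88 groups looked at, where chance gives about 1 in 20, or 4.4. *Mfsd2a* in 2afl/fl replicate 2 (1569) was one, against 299.6 to 513 in the other controls. In L2aKO replicate 1 these were *Trit1* (344, high), *Yrdc* (314, low) and *Meaf6* (265, low). In 2afl/fl replicate 3 they were *Hyi* (606, low) and *Zc3h12a* (162, high). The others were *Kdm4a* in L2aKO replicate 4 (1033, low), *Ppcs* in 2afl/fl replicate 2 (463, low) and *Map7d1* in L2aKO replicate 3 (1257, high).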

How the results depend on the processing

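Against 5 members called as reported, the members called in each refit, which need not be the same genes, numbered 3 to 8 without 1 library, with 8 without 2afl/fl replicate 4 and 3 without L2aKO replicate 2. They numbered 4 to 6 under the other settings apart from those that follow. Without a fold limit there were 7. Members called numbered 3 in a fit of genes with a mean of at least 10, 2 at a fold of at least 1.5, and, in counts added after the data had been seen, 3 within 2.5 Mb and 3 of mean at least 10. No setting gave a member an adjusted p under 0.05. The log2 fold change of *Mfsd2a* ranged from 0.69 to 1.49 without 1 library, and the median size of change within 1 Mb from 0.05 to 0.10 (0.0539 to 0.0981). The count of members correlated with *Mfsd2a* was 0, or 1 without 2afl/fl replicate 4. With the replicate number as a block 4 members were called, and the log2 fold change of *Mfsd2a* was 1.01, short of the criterion as in the fit without it. The numbers were not taken as pairs, since deviations of same-numbered livers correlated at 0.04, -0.21, 0.05 and 0.13, and not every liver correlated best with its own number. *Maneal* was not called under the block. Among 684 values of named members under the alternatives, 38 short of the criterion changed sign. Members of low value, 14 with a mean under 10, are limited by counting.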

Other observations

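The 5 genes of the window that the symbol rule left out were not called either. *Cdc20*, which triggers the exit from mitosis, stood at 16.7 and 27.5 in 2afl/fl and the livers labelled L2aKO (log2 fold change 0.75, SE 0.49), and *Cdca8* of the chromosomal passenger complex at -0.17 (SE 0.34). *Ndufs5* of complex I, 0.752 Mb from *Mfsd2a*, was at -0.23 (SE 0.22), *Psmb2* of the proteasome at -0.01 (SE 0.07) and *Col8a2* at 0.09 (SE 0.40).

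Some genes that start within 1 kb of each other on opposite strands had these log2 fold changes, side by side: *AU022252* -0.04 and *P3h1* -0.10, 190 bases apart, *Frg2f1* -0.07 and *Foxj3* -0.02, 891 bases apart, and *Ppcs* 0.03 and *Zmynd12* -1.25 (SE 0.58), 263 bases apart. *Zmynd12* was listed at 0 in 2 livers labelled L2aKO and at no more than 4.26 in any liver.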
